A study of Mus musculus with 5 samples.

Results

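Cholangiocyte-like cells were 101 of the 23080 cells in the 3 single-cell libraries of DEN+WAD mouse liver, and of 24007 cells in the 5 libraries of the series. They were chosen by their own RNA counts: a cell had to hold at least 1000 UMIs (unique molecular identifiers, each standing for 1 captured RNA molecule), at least 3 of the 6 genes Epcam, Krt19, Krt7, Sox9, Cldn4 and Cldn7, and 0 UMIs of the endothelial gene Pecam1 and of the leukocyte gene Ptprc. The library labelled VitA-Col1a1- gave 66 of its 9870 cells (0.669%, exact Clopper-Pearson 95% interval 0.518 to 0.850%). VitA+Col1a1+ gave 23 of 10481 (0.219%, 0.139 to 0.329%) and VitA-Col1a1+ gave 12 of 2729 (0.440%, 0.227 to 0.767%). These shares follow sort gates, so they are no estimate of the share in liver, and all intervals in the text cover counting error only.

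All libraries came from livers of male Rosa26mTmG;Col1a1-Cre mice on C57BL/6J, in which a Col1a1 promoter drives Cre and a recombined cell turns from red to green fluorescence. DEN+WAD animals received diethyl nitrosamine, a liver carcinogen, at 10 mg/kg when 2 weeks old, and from 6 weeks were given a liquid Western alcohol diet with 3.5% ethanol for 5 months. Chow animals received saline and chow. Non-parenchymal cells were sorted on green fluorescence (Col1a1+ or Col1a1-, so that a label rests on past Cre activity) and on the autofluorescence of vitamin A (VitA+ or VitA-), with 1 library for each sorted fraction, so no comparison has a replicate and none is tested. Whether animals were pooled is not given in the sources used here. The label gives every library as hepatic stellate cells.

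Cholangiocytes are the epithelial cells that line the bile ducts. They are joined by tight and adherens junctions, carry keratins, secrete bicarbonate and mucins, sense flow with a primary cilium, and are specified by the transcription factors Sox9 and the Onecut family, with Notch signalling from the portal mesenchyme. In injured liver they take part in the ductular reaction, in which ductal cells expand, and in which YAP target genes and osteopontin (Spp1) are known to be raised.

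Members had a median of 12262 UMIs in VitA-Col1a1-, 9998 in VitA+Col1a1+ and 27367 in VitA-Col1a1+, against 9079, 13236 and 16674 in the other cells of the same library. Their median share of mitochondrial RNA was 4.59, 4.38 and 5.08%, above the 3.60, 2.76 and 2.90% of other cells, and the part of depth or mitochondrial RNA in the results was not tested. Libraries shared 21, 5 and 13 cell barcodes by pairs, and only 1 member had a barcode also present in another library. The library labelled VitA-Col1a1- held Col1a1 RNA at 1073 CPM (a gene's count scaled to 1000000 UMIs, pooled over cells) in its other cells, next to 305 and 966 CPM in the sorted Col1a1+ libraries, which goes against its label. Where 3 values stand together they are in the order VitA-Col1a1-, VitA+Col1a1+, VitA-Col1a1+. In members Col1a1 was at 42.4, 26.5 and 15.2 CPM, and it was detected in 8 of 66, 3 of 23 and 5 of 12 cells. In chow liver the same rule found 2 of 259 VitA+Col1a1+ cells and 3 of 668 VitA-Col1a1+ cells, with Spp1 at 23494 and 21437 CPM and Epcam at 730.0 and 1235, and these are too few to set against DEN+WAD.

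The 6 rule genes describe the selection and carry no test. Epcam, an adhesion molecule of simple epithelia (chromosome 17, 87635979 to 87651129, GRCm38), was at 814 CPM in the members of VitA-Col1a1-, 762 in VitA+Col1a1+ and 614 in VitA-Col1a1+. Krt19, the duct keratin (chromosome 11, 100140810 to 100148665), was at 212, 1000.4 and 1797 CPM and was found in 50 of 66, 23 of 23 and 10 of 12 members. Sox9 (chromosome 11, 112782224 to 112787760) was at 636, 690 and 528 CPM. Of the 66 members of VitA-Col1a1-, 16 held 3 of the 6 genes, 13 held 4, 20 held 5 and 17 held 6. Just outside the rule, 27 cells of that library held 2 of the 6 genes, against 0 in VitA+Col1a1+ and 2 in VitA-Col1a1+. Another 9 cells of VitA-Col1a1- and 1 of VitA-Col1a1+ met the gene count but held Pecam1 or Ptprc.

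Other cholangiocyte genes, which the rule did not use, were found in every member. Of 10 further cholangiocyte genes (Krt8, Krt18, Spp1, Onecut1, Cftr, Tspan8, Cd24a, Cdh1, Prom1 and Sctr), every member held at least 3, with medians of 7, 7 and 8, whereas the median of other cells was 0 in each library. At least 6 were found in 60 of 66, 23 of 23 and 12 of 12 members, and also in 60, 0 and 3 other cells. Among other cells of VitA-Col1a1- 205 (2.09%) held at least 3 of the 10, against 3 (0.0287%) in VitA+Col1a1+ and 7 (0.258%) in VitA-Col1a1+. These genes vary together with the rule genes, so the counts are a description. Krt8, Spp1 and Tspan8 among them were also found in hepatocytes, described further on, and depth was not matched. A count of at least 3 therefore does not tell cholangiocytes from hepatocytes. The labelled type, hepatic stellate cell, was not met, since Col1a1 and the stellate genes were low in all but 7 members described further on.

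Spp1, osteopontin (chromosome 5, 104435118 to 104441050), had the highest ratio of members to other cells, taken as CPM plus 5, in the library with the most members. It ranged over the 66 members from 0 to 104583 CPM with a median of 23767, over the 23 members of VitA+Col1a1+ from 1234 to 40175 with a median of 21694, and over the 12 of VitA-Col1a1+ from 724 to 44483 with a median of 21109. Pooled, the members' Spp1 was 87.0 times the level of other cells in VitA-Col1a1- (counting interval 85.4 to 88.6), and other cells stood at 232, 1.15 and 76.7 CPM in the 3 libraries. Thinned to 2000 UMIs a cell, 98.5% of members and 3.93% of other cells of VitA-Col1a1- held Spp1. Clu, the secreted chaperone clusterin, was at 12814, 13195 and 16152 CPM, 46.3, 42.4 and 37.6 times the other cells. Krt8 and Krt18, the paired keratins of simple epithelia, were high in all 3 libraries, Krt8 at 2200.3, 4305 and 3833 CPM and Krt18 at 2123, 3278 and 3584. Krt8 was thereby 39.1 times the other cells of VitA-Col1a1- (37.2 to 40.9) and 433 times those of VitA-Col1a1+ (388 to 484).

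**Figure D1:**
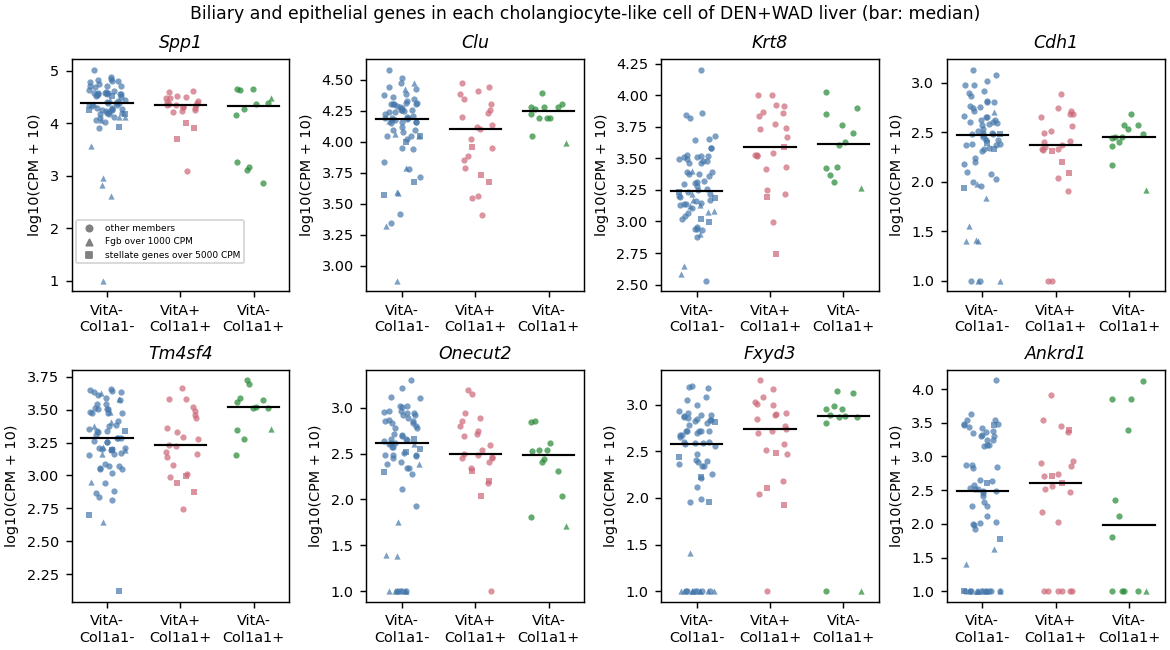
Level of 8 genes in each of the 101 members, on a log10 scale of CPM plus 10, by library. Bars are medians, triangles mark members with Fgb above 1000 CPM and squares those with stellate genes above 5000 CPM. Clu was found in every member, from 749 CPM upward, while Ankrd1 was found in 48 of the 66 members of VitA-Col1a1-.

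The genes with the highest ratios of CPM plus 5 in VitA-Col1a1-, beside Spp1, Clu and Krt8, taken by rule among genes of at least 50 CPM found in at least 25% of members, were Fxyd3, Sftpd, Atp1b1, Onecut2, Dsg2, Plet1, Wfdc2, Cd24a, Tm4sf4, Pdzk1ip1, Cldn3, Scara3, Ehf, Cdh1, Ddit4l, Tesc and Fgfr3. Fxyd3, a regulator of the sodium pump, was at 288 CPM and 289 times the other cells (231 to 364). Atp1b1, the beta subunit of that pump, was at 683 CPM against 10.4. Onecut2, a transcription factor of the biliary lineage, was at 336 CPM against 3.34 and was found in 57 of 66 members. Sftpd, the collectin surfactant protein D, was at 245 CPM against 0.536. Cdh1 (E-cadherin) was at 238 CPM in VitA-Col1a1-, 254 in VitA+Col1a1+ and 239 in VitA-Col1a1+, next to 5.22, 0.0668 and 0.318 in other cells.

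Some of these genes were also found in hepatocytes. A hepatocyte rule in that library asked for at least 4 of Hnf4a, Tat, G6pc, Cps1, Pck1 and Cyp8b1. It also asked for under 3 of the 6 rule genes, at least 1000 UMIs and 0 UMIs of Pecam1 and Ptprc. Another 20 cells that also met a stellate rule (at least 3 of Lrat, Reln, Colec11, Ecm1, Hgf and Rgs5) were left out. The 50 hepatocyte-rule cells that remained held Spp1 at 1712 CPM, Clu at 2617, Tspan8 at 908, Krt8 at 764 and Tm4sf4 at 934. Epcam was at 2.01 CPM and Krt19 at 0 UMIs in them. Ehf, Scara3 and Tesc also had 0 UMIs there, while Sox9 stood at 85.5 CPM.

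**Figure D2:**
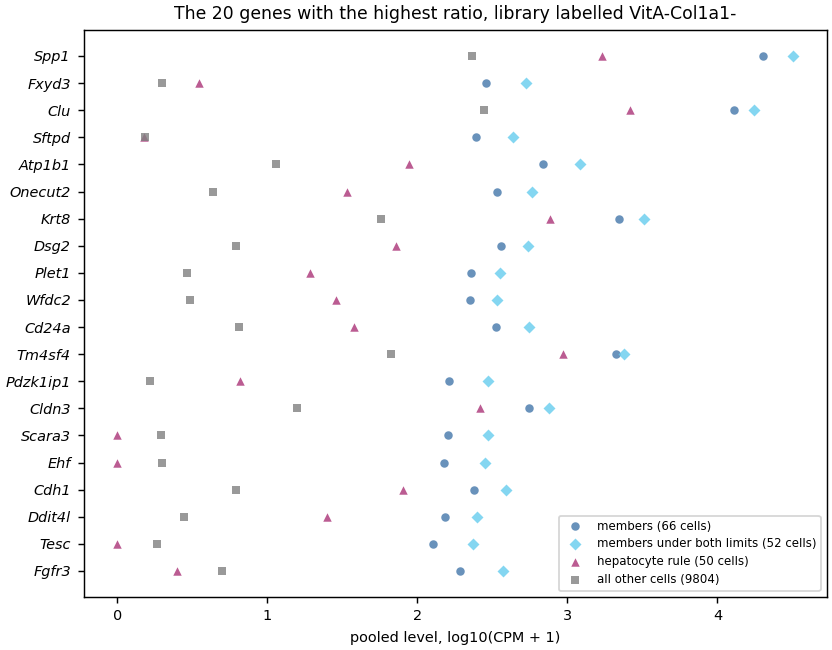
Pooled level (log10 of CPM plus 1) of the 20 genes with the highest ratio in the library labelled VitA-Col1a1-, in all 66 members, in the 52 members under both RNA limits, in 50 cells of the hepatocyte rule and in the 9804 other cells. Members lay to the right of all other cells for each gene, and hepatocyte-rule cells lay below the members for each gene.

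Promoters of 12 of these 20 genes were in the RefSeq table of GRCm38.p6, which gives 250 bases before and 50 after each start. The letters GGAATG, bound by the TEAD partners of YAP, were searched on both strands because YAP target genes are among the lists of these cells. They were found for Fxyd3 and Tesc, 2 of 12 (16.7%), against 16.6% of the 27025 genes of the table, so the share was that of all promoters. A match of letters is a description and no site of binding. Both promoters are shown with the match in capitals, which begins 84 bases before the start in Fxyd3 (chr7:31076648-31076947, minus strand) and 14 bases before it in Tesc (chr5:118027493-118027792, plus strand), where it reads on the other strand.
Fxyd3: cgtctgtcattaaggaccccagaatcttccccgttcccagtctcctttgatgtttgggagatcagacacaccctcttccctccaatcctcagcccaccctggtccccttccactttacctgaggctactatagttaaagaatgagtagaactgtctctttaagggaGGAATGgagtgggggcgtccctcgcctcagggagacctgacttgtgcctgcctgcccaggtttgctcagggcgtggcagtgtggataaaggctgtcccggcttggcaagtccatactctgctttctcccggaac
Tesc: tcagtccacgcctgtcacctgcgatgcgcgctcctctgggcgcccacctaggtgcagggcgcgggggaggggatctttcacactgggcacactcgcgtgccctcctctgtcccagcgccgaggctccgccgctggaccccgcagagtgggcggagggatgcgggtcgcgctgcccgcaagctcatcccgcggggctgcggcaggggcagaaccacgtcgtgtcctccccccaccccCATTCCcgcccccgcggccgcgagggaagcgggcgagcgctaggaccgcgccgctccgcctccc

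The members were not uniform. In VitA-Col1a1- 10 members held Fgb, the fibrinogen beta chain made by hepatocytes, at 1049 CPM or more, and none of the others exceeded 252. Pooled, these 10 held Alb at 29834 CPM, Apoa1 at 18525, Trf at 16238 and Hamp at 1196, next to 40217, 25586, 18331 and 1130 in the hepatocyte-rule cells. Hamp was found in only 20.0% of the 10 cells and Apoa1 in 90.0%. Epcam in them was at 54.8 CPM (26 UMIs over 10 cells), Krt19 had 0 UMIs, and each had exactly 3 of the 6 rule genes. Their median was 51399 UMIs, so they carried 41.9% of all UMIs of the 66 members. Pooled Spp1 at 6662 CPM, Clu at 8442 and Sox9 at 265 were above the hepatocyte-rule cells. Sox9 is a rule gene, so its higher level follows from how both groups were chosen. Spp1 ranged from 0 to 28070 CPM over the 10 cells, and some of them were below the hepatocyte-rule cells. For these 10 cells the data go against the name cholangiocyte-like, and they are called members by the rule alone. The other 6 members with 3 rule genes were shallow, from 1482 to 3970 UMIs, with Epcam at 434 CPM or more. VitA-Col1a1+ held 1 such member, of 97626 UMIs and Fgb at 1096 CPM, which carried 24.8% of its members' UMIs. VitA+Col1a1+ held none.

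RNA of stellate cells was found in 7 members. The summed level of Dcn, Lrat, Ecm1, Col3a1, Colec11 and Reln was 13370 to 16720 CPM in 4 members of VitA-Col1a1- and no more than 783 in the others, with 4940.5 as the median of other cells. In VitA+Col1a1+ 3 members were at 25537 to 35739 CPM and the rest at 1061 or less, where other cells had a median of 47311. None stood out in VitA-Col1a1+, with 543 CPM at most. A doublet caller marked 3 members of VitA-Col1a1-, 2 of them among these 4, and none of the 10 with Fgb. It marked 1 cell in all of VitA+Col1a1+, so it did not work there. Whether the 7 are pairs of cells was not tested. The limits of 5000 CPM and of 1000 CPM for Fgb were set after the values had been seen, and 52, 20 and 11 members stayed under both.

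Without the members over these limits the biliary genes stood higher in VitA-Col1a1-. Epcam was then at 1501 CPM, Krt19 at 393, Spp1 at 31808 and Krt8 at 3233, and Spp1 was 137 times the other cells. Hepatocyte genes were lower in part. Apoa1 went from 7806 to 81.9 CPM, Fgb from 1764 to 21.4 and Trf from 7015 to 411, whereas Alb was still at 4839 and Ttr at 2136. Ambp, which is also counted further on in the list of biliary identity, was at 1585.

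Hepatocyte genes did not stand in 1 ratio to each other in the members under both limits. For every 100 UMIs of Alb, hepatocyte-rule cells held 63.6 of Apoa1, 17.2 of Fgb and 12.7 of Apoa2, and the 52 members under both limits held 1.69, 0.442 and 0.883. Ahsg and Trf were lower as well, at 10.9 and 8.50 per 100 of Alb against 39.8 and 45.6. Ambp, at 32.7 against 6.13, and Serpina1c, at 26.6 against 13.6, were higher, and reads of Serpina1c can be shared with its near-identical family members. In the 20 such members of VitA+Col1a1+ Alb had 928 UMIs and Apoa1, Apoa2 and Fgb had 0, although the other cells of that library held 65.6 UMIs of Apoa1 for every 100 of Alb. The 11 such members of VitA-Col1a1+ held 829 UMIs of Alb and 0 of Apoa1, Apoa2 and Fgb. Serpina1c was at 0.323 and 0.121 per 100 of Alb in the members under both limits of these 2 libraries. Ttr was at 44.2 and 65.8 per 100 of Alb in VitA-Col1a1- and VitA+Col1a1+, next to 15.9 and 10.6 in their other cells and 19.2 in hepatocyte-rule cells. In VitA-Col1a1+ such a ratio cannot be read, since 4 members held Ttr at 1845 to 8127 CPM with 0 UMIs of Alb. Alb was found in 22 of 23 members of VitA+Col1a1+ (median 2355 CPM) and in 0.710% of its other cells after thinning, against 91.3% of members.

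**Figure D3:**
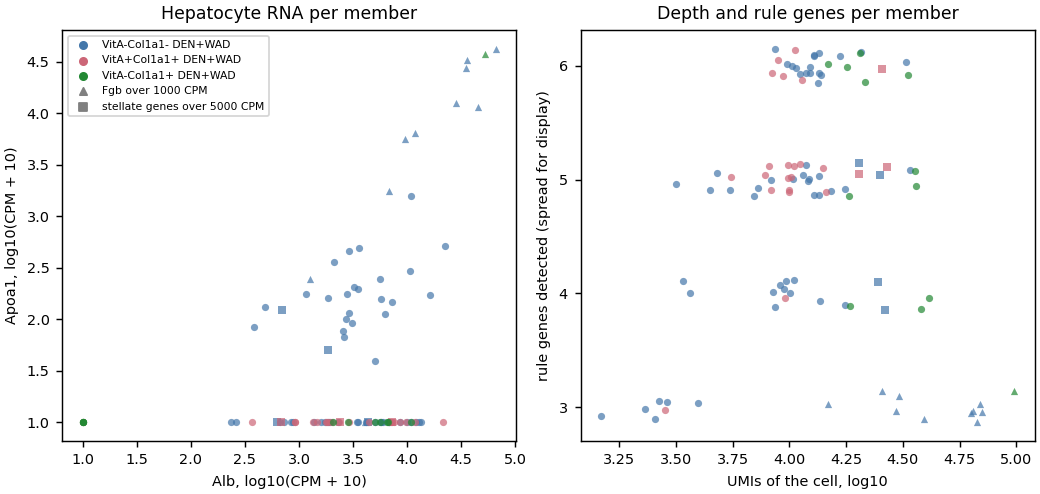
Left, Alb against Apoa1 in each member, log10 of CPM plus 10. Right, the cell's UMIs (log10) against the number of rule genes found, spread for display. Members with Fgb above 1000 CPM (triangles) held Apoa1 together with Alb, except 1 with Alb at 4098 CPM and 0 Apoa1. Many other members stood at 0 Apoa1 across the range of Alb. Each triangle sat at 3 rule genes, with 14820 to 97626 UMIs.

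Gene lists were counted in VitA-Col1a1-, the library with at least 50 members, by a 2-fold difference in CPM plus 5 among 9179 genes with a mean of at least 10 CPM over members and other cells. Of these, 11.8% were at least 2-fold higher in members and 17.1% lower, and 539 of the 1083 higher genes had under 10 CPM in other cells, so that they passed through the members alone. Likewise 794 of the 1566 lower genes had under 10 CPM in members and passed through the other cells alone. The median of all genes tested was 0.03 on the log2 scale. No count over genes tests a condition here, since cells of 1 library were compared.

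In the list of biliary identity, which holds none of the 6 rule genes, 26 of 30 measured genes passed and 26 were higher (median log2 difference 4.33). Of 24 junction genes 21 passed, 19 were higher and none lower (2.82), with the tight junction gene Cldn3 at 554 CPM against 14.7 and the desmosomal gene Dsg2 at 357 against 5.16. Cilium and polarity genes had 8 higher and 1 lower of 14, among them Pkhd1 (fibrocystin) at 116 CPM against 0.698 and Bicc1 at 460 against 154. Bile transport genes had 8 higher and 2 lower of 16. Slc5a1, a sodium-glucose carrier, was at 105 CPM against 0.536, and Slc10a2, which takes up bile acids, was at 104 against 3.42. Cftr, the chloride channel that cystic fibrosis disables, was at 27.4 CPM and was found in 19 of 66 members. Sctr, the secretin receptor, was near the floor with 4 UMIs in 66 cells.

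Mucosal genes were few but wide in range. Of 17 measured, 3 passed, Pigr, Tff2 and Muc1, and 12 had 0 UMIs in the 66 members. Pigr, which carries antibodies across epithelium, was at 349, 284 and 909 CPM, library by library. Tff2, a trefoil peptide, was found in 24 of 66, 11 of 23 and 6 of 12 members.

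Among genes of the ductular reaction 9 of 16 were higher and 3 lower. Lcn2 (lipocalin 2) was at 1036 CPM in VitA-Col1a1-, 148 in VitA+Col1a1+ and 893 in VitA-Col1a1+, but 64.1 in the last once its 1 member rich in Fgb was left out. Sox4 was at 651, 762 and 513 CPM, 4.36 to 7.48 times the other cells. Tnfrsf12a, the receptor of TWEAK, was at 403, 371 and 432 CPM, 5.94, 10.9 and 5.22 times the other cells.

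YAP and TEAD genes were mixed, with 5 higher and 5 lower of 18 (median log2 difference -0.21), and 6 higher and 4 lower (0.28) without the members over the limits. Ankrd1, a YAP target, was at 583, 1122 and 1485 CPM, next to 93.3, 7.06 and 22.4 in other cells. Without the members over the limits its level in VitA-Col1a1- was 1027 CPM in place of 583. It varied widely among members, from 0 to 13529 CPM with a median of 298 in VitA-Col1a1-. Cyr61 was 2.62, 2.14 and 1.45 times the other cells, whereas Ctgf was 0.604, 1.60 and 0.190 times. Yap1 itself was at 33.5 CPM against 42.1, and the ratio of 0.796 had an interval of 0.562 to 1.09.

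No Notch gene was 2-fold higher and 7 of 11 were lower, among them Notch1 at 28.2 CPM against 123. The target Hes1 was at 1345, 6723 and 2046 CPM, 1.52, 2.01 and 1.13 times the other cells, and the first was 2.49 without the members over the limits, where 2 of 12 Notch genes were higher and 6 lower. Of 15 Wnt genes 3 were higher and 2 lower (median log2 difference -0.08), and of 16 without the members over the limits 5 were higher and 1 lower (0.40). Ccnd1, cyclin D1, was 2.98 times the other cells (2.74 to 3.25) in VitA-Col1a1-, 7.32 in VitA+Col1a1+ and 5.79 in VitA-Col1a1+, and the first was 4.90 without the members over the limits. Ctnnb1, beta-catenin, was 1.69, 2.23 and 1.42 times the other cells. The Wnt targets Axin2, Lgr5, Lef1 and Tbx3 had 0 UMIs in the 66 members.

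Of 23 secreted signals 5 were higher and 11 lower. Hbegf, a ligand of the EGF receptor, was at 288, 595 and 1058 CPM, 5.01, 75.7 and 30.9 times the other cells. C3 was at 1200.3 CPM against 181, 205 against 7.28 and 363 against 227, and in VitA-Col1a1+ it was 0.638 times the other cells without the member rich in Fgb. Of 21 growth factor and cytokine receptors 5 were higher, Erbb3, Met, Fgfr3, Fgfr4 and Tnfrsf12a, and 9 lower, with Fgfr3 at 191 CPM against 4.01 and the shared receptor subunit Il6st at 107 against 655.

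Interferon response genes were lower, 14 of 16 with none higher (median log2 difference -2.00). Ifitm3 was at 1236, 913 and 272 CPM, 0.463, 0.215 and 0.0894 times the other cells, and Isg15 was 0.282, 0.309 and 0.0327 times. Without the members over the limits Ifitm3 was 0.257, 0.0739 and 0.0567 times and Isg15 0.162, 0.0630 and 0.0368 times. Class I genes differed less, with H2-K1 at 2333 CPM against 2350 in VitA-Col1a1- but 0.520 and 0.606 times the other cells in the other two libraries. Cd74, the class II chain, was at 324, 197 and 145 CPM, below the other cells of VitA-Col1a1- (2015) and above those of VitA+Col1a1+ (8.02) and VitA-Col1a1+ (24.3). The other cells of VitA-Col1a1- hold leukocytes, so a ratio there depends on the cells beside the members.

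Markers of leukocytes and of endothelium were low in members, which the rule on Ptprc and Pecam1 favours. All 11 leukocyte genes and all 12 endothelial genes that passed were lower, and the 15 leukocyte genes had 0 UMIs in the 23 members of VitA+Col1a1+. Such genes can pass the mean of 10 CPM through the other cells alone, so these counts are a description. Of 12 mesothelial genes, Wt1, Lrrn4, Muc16, Rspo1, Bnc1 and Krt14 had 0 UMIs in the members of every DEN+WAD library, and 8 of the 12 had none in VitA-Col1a1-. The 3 mesothelial genes that passed were all higher in members of VitA-Col1a1- (median log2 difference 2.70), namely C3 and Slpi, which other epithelia also express, and Gpm6a at 56.5 CPM against 7.17. Summed over the 12 genes, the list stood at 1507 CPM against 226, and its range over the 66 members was 0 to 3708 CPM. Slpi went from 248 CPM to 0 UMIs without the members over the limits, when 2 of the 3 genes were higher and 1 lower, and the part of mesothelial RNA was not tested. All 20 stellate genes were lower in VitA-Col1a1-, and all but 1 of them without the members over the limits.

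The study followed a pathway from stearoyl-CoA desaturases and an oxylipin receptor to beta-catenin and YAP. Of its 17 genes 13 passed, 2 were higher (Scd1 and Ccnd1) and 4 lower (Cyp1b1, Tbxas1, Ptgs1 and Wwtr1). The receptor gene Ltb4r2 had 0 UMIs in all 101 members, which allows up to 2.65 CPM in VitA-Col1a1-, 11.4 in VitA+Col1a1+ and 7.62 in VitA-Col1a1+. In other cells it was at 0.127 CPM or less, so it was at the limit of detection throughout. Ltb4r1 had 1 UMI, in VitA-Col1a1+, and Cyp1a1 had none. Cyp1b1, a cytochrome P450, had 1 UMI in VitA-Col1a1-, in a member over the stellate limit, and 0 in all other members. Other cells were at 25.1, 5.49 and 44.9 CPM. Ptgs1 (cyclooxygenase 1) was at 5.30 CPM against 88.5 in VitA-Col1a1-, and Ptgs2 at 2.65 against 16.3. Tbxas1, thromboxane synthase, was at 0.883 CPM against 26.6 there, but at 15.2 against 0.0935 in VitA+Col1a1+, from 4 UMIs in 2 cells. Scd2 was at 101 CPM against 67.3, 98.5 against 62.1 and 168 against 48.4, and without the members over the limits its ratio in VitA-Col1a1- was 2.36. Scd1 was at 296 CPM in VitA-Col1a1-, 2.77 times the other cells, but at 14.2 CPM, 0.133 times, among the 52 members under both limits. It had 0 UMIs in VitA+Col1a1+, and in VitA-Col1a1+ its 86.3 CPM became 16.9 without the member rich in Fgb. Wwtr1, the paralog of Yap1, was at 58.3 CPM against 139. Lrp5, Lrp6, Elavl1 and Gsk3b were between 0.492 and 1.26 times the other cells of VitA-Col1a1-.

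The hepatocyte list and some metabolic lists changed when the 14 members over either limit, 10 for Fgb and 4 for stellate genes, were left out together. With all 66 members, 21 of 23 hepatocyte genes were higher and 2 lower, and with 52 members 4 of 19 were higher and 9 lower. Lipid genes went from 7 higher and 3 lower of 20 to 6 and 6, with Plin2, a coat protein of lipid droplets, going from 704 to 130 CPM. Of the p53 and senescence genes 3 of 11 were higher and none lower, then 1 of 10 higher and 3 lower. Cdkn1a went from 333 to 116 CPM and Cdkn2b from 112 to 12.5. Biliary identity (27 of 27 higher), junctions (21 of 23) and cilium and polarity (13 of 16) held without them, where the shares over all genes were 14.9% higher and 16.6% lower.

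**Figure D4:**
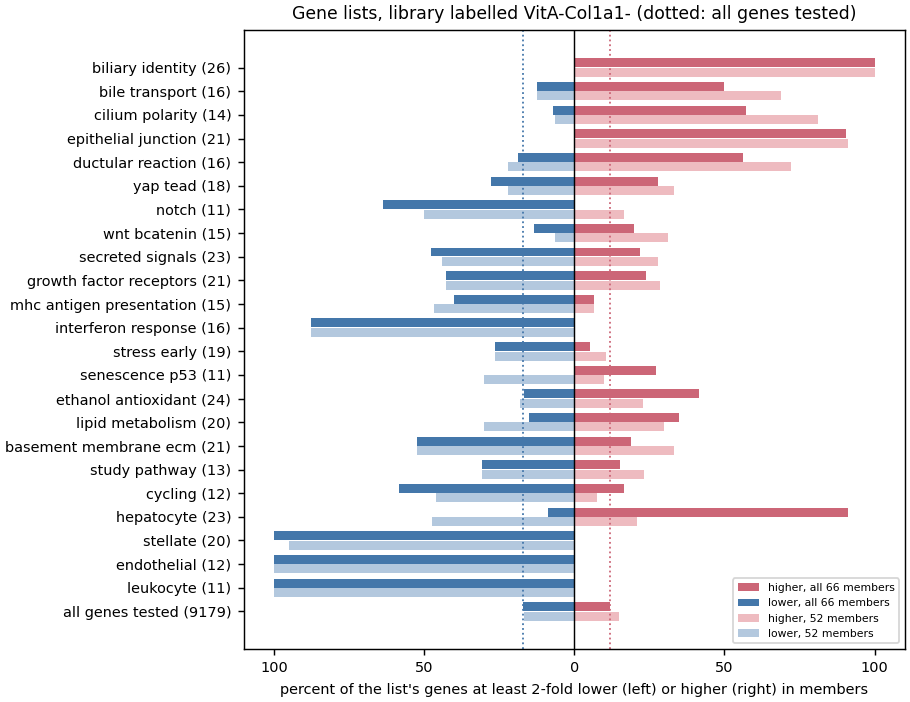
Share of each list's tested genes (number in brackets) that were at least 2-fold higher (right) or lower (left) in members than in other cells of the library labelled VitA-Col1a1-, with all 66 members (dark) and with 52 members under both RNA limits (light). Dotted lines mark all genes tested, and the hepatocyte list had 21 of 23 genes higher in dark bars but 4 of 19 in light ones.

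Of 19 early response and stress genes, 1 was higher and 5 lower, and 2 and 5 without the members over the limits. The one higher among all 66 was Atf3, a stress-induced transcription factor, at 1510 CPM against 664, 4157 against 913 and 3752 against 833. Of 21 genes of basement membrane and matrix 4 were higher and 11 lower (7 and 11 without the members over the limits), with the collagen gene Col4a1 at 199 CPM against 1347 in VitA-Col1a1-, 98.5 against 653 in VitA+Col1a1+ and 71.1 against 713 in VitA-Col1a1+. Genes of ethanol and antioxidant metabolism were 10 higher and 4 lower of 24 with all 66 members, and 5 and 4 of 22 with the 52. Of 15 antigen presentation genes 1 was higher and 6 lower.

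Proliferation genes were mixed, with 2 higher and 7 lower of 12, or 1 and 6 of 13 without the members over the limits. Top2a had 1 UMI in the 66 members and 0 in the others, and Mki67 was found in 2 of 66, 0 of 23 and 1 of 12 members. All UMIs of Ccnb2 in the members of VitA-Col1a1- came from 1 cell. Stmn1 was at 115, 114 and 60.9 CPM, 2.36, 11.6 and 4.43 times the other cells.

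Clustered by themselves, the 66 members of VitA-Col1a1- split into 5 clusters, given here as a description. One held exactly the 10 members over the Fgb limit and another of 5 cells held the 4 over the stellate limit. The remaining clusters had 15, 20 and 16 cells. The levels are pooled over cells, and several genes were found in only part of the cells. For these clusters the other members include the 10 over the Fgb limit, which carried 41.9% of all UMIs of the 66 members. Each contrast is therefore in part with the RNA of those 10 cells. In the 15 cells Fam107b, found in 33.3% of them, was at 646 CPM against 26.8 in the other members, with Plaur at 273 against 12.3 and the early response gene Nr4a1 at 211 against 25.7, both found in 40.0%. Hbegf was at 1186 against 139 there and was found in 93.3% of the cells. In the 16 cells Wfdc18, found in 37.5% of them, was at 2110.5 CPM against 15.5, and the surface antigen Psca, found in 56.2%, at 287 against 6.19. Tff2 (342 against 42.3), Igf1 (281 against 33.0), Rgs5 (1379 against 220) and Cd74 (1098 against 193) were also higher in them and were found in 68.8% to 81.2%. The 20 cells had smaller differences, with the water channel Aqp5 at 94.8 CPM against 15.4 and the peptidase Mme at 185 against 36.2, found in 45.0% and 60.0% of the cells.

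In VitA-Col1a1+ the 11 members under both limits separated by Lgals4, a lectin known from the gut lining, with 4 cells at 696 to 2287 CPM and 7 at 0. The split was chosen after the values had been seen. How many of all genes would also separate the 4 cells from the 7 is not given here, so the values are a description. The 4 cells held Dmbt1, a mucosal scavenger protein (chromosome 7, 131032053 to 131121630), at 9435 to 15339 CPM, S100g at 1559 to 9910, Ly6d at 579 to 3110 and Muc3 at 138 to 685, and the 7 cells had 0 UMIs of all these genes. Krt19 was at 3361 to 4871 CPM in the 4 cells and at 0 to 1391 in the 7. Spp1 ran the other way, at 724 to 1819 CPM against 14281 to 44483. Alb and Ankrd1 had 0 UMIs in each of the 4 cells and were present in each of the 7, at 2041 to 10847 and 54.5 to 13347 CPM. Sox9 was found in 1 of the 4, at 82.7 CPM, and in all of the 7. Clu, Krt8 and Cdh1 were present in all 11.

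**Figure D5:**
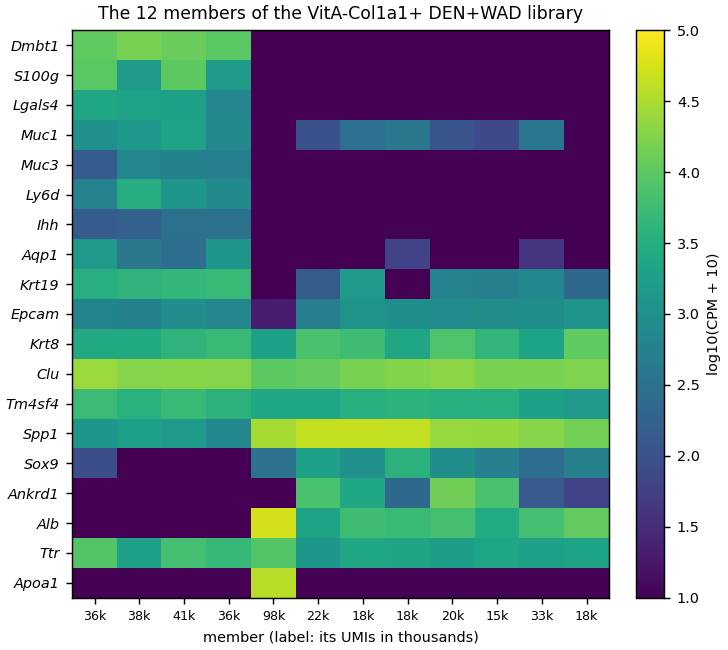
The 12 members of the VitA-Col1a1+ DEN+WAD library (columns) and 19 genes (rows), coloured by log10 of CPM plus 10. The 4 columns on the left, with Dmbt1 and Lgals4, lack Alb and Ankrd1, and the next column is the member with Apoa1, of 97626 UMIs.

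VitA+Col1a1+ also held 4 members above 100 CPM of Lgals4, at 119 to 1459 with a median of 268. In the shallowest member of that library, of 2827 UMIs, a single UMI passes 100 CPM, so this set can rest on few UMIs. Dmbt1 was at 0 to 594 CPM in these cells and found in 2 of the 4, and S100g and Muc3 had 0 UMIs. Spp1 ranged from 1234 to 32543, and its lowest value lay inside the range of the 4 cells of VitA-Col1a1+. Whether the 2 sets are alike cannot be read from so few cells. Elf3, an epithelial transcription factor, was at 1010 to 1453 CPM in the 4 of VitA+Col1a1+ and found in 7 of the other 16. In the 52 members of VitA-Col1a1- under both limits Lgals4 was at most 30.5 CPM, in 1 cell, and Dmbt1, Muc3 and S100g had 0 UMIs.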

How the data were processed

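Per the labels, the libraries were made with 10x Genomics 3' droplets. One label field names kit v3.1 and another v2, and the files do not tell them apart. The deposited values were raw UMI counts for 31053 genes, which the authors made with Cell Ranger on mm10. The header names version 6.1.2 for the library labelled VitA-Col1a1- and 3.1.0 for the others, a difference that cannot be told apart from the gate.

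Counts were pooled over members and over all other cells of the same library and scaled to CPM, with exact Poisson, conditional binomial or Clopper-Pearson 95% intervals, in Python 3.11.15 with scipy 1.17.1. Clusters came from scanpy 1.11.5 and doublets from its Scrublet. TMM factors came from edgeR 4.0.16. With 1 library per group there is no test. The ratio and count scripts were tested on simulated data. The members and lists were chosen with earlier results of these data known. Genes were named by rule: the 6 rule genes, the 20 highest and 6 lowest ratios, up to 6 per list, and every gene of the study's pathway, with genes from member clusters, Lgals4 sets and list directions added after their values were seen. The 6 lowest in VitA-Col1a1- were Hbb-bs, C1qa, Mgp, Hba-a1, Cd5l and C1qb. Coordinates are from GENCODE M21 (30934 of 31053 identifiers found). Some genes and a motif are not reported here, and the count of further cholangiocyte genes was taken over 10 of the 12 listed.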

Additional observations from a re-analysis of the deposited data

How the results depend on the processing

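In VitA-Col1a1- the 66 members became 93 with at least 2 of the 6 genes, 50 with at least 4 and 43 when cells were thinned to 2000 UMIs first. In VitA-Col1a1+ the 12 became 30 when Krt19 alone replaced the count of 3 genes. Every other count of members stayed within its counting interval. The 1083 genes at least 2-fold higher in VitA-Col1a1- became 560 when genes were filtered on 10 CPM over the whole library, which drops genes held by few cells, with 1850 lower. Higher genes made up 40.9% of calls, 23.2% under that filter and 33.6% with TMM factors, which moved the median log2 difference over all genes tested from 0.03 to -0.14. The other counts stayed within 1.5 times. Of 1127 log2 differences under an alternative, 964 moved by no more than a tolerance. It came from their counting error, with a small minimum, or was a fixed value where that error was not finite. A turn of sign was counted only where the main difference was at least 2-fold, and 5 turned. Scd1 in VitA-Col1a1-, at 1.43, turned to -2.68 with at least 4 genes, to -2.56 without Lrat and Dcn, to -2.54 without members over the limits and to -0.24 as a mean over cells. Tbxas1 in VitA+Col1a1+ turned from 1.98 to -0.0267 without Lrat and Dcn. No member of VitA-Col1a1+ lacked both Lrat and Dcn, so that alternative gave no value there. The alternative without members over the limits was chosen after seeing the data. Of 49 shares of members with a gene, 40 fell outside their interval when thinned to 2000 UMIs. No paired analysis was possible because each group held 1 library. Rare genes are limited by 1133046, 263883 and 393957 UMIs of members.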
